A study of Danio rerio with 58 samples.

Results

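The floor of the zebrafish dorsal aorta was compared between 28 and 21 hours post fertilization (hpf), using all 12 floor cells of 28 hpf and all 18 floor cells of 21 hpf. These 30 cells were chosen by the region and stage in their titles, out of 58 cells that also include 28 roof cells. All embryos carried the same transgenes, Tg(flk1:eGFP) and Tg(flk1:NLS-Eos), which put green fluorescent protein and a nuclear Eos protein under the promoter of flk1, a name of the endothelial receptor gene kdrl. Eos turns from green to red under violet light, so cells of a lit region of the vessel could be picked by hand as red cells under the microscope. Each picked cell became 1 Smart-seq2 library, in which polyadenylated RNA is captured with oligo-dT and amplified before sequencing, here as 150 bp paired-end reads. Floor cells of 21 and 28 hpf therefore shared genotype, reporter, vessel and region and differed in stage. The titles of 28 hpf floor cells also carry parts such as M8 and M12, of unstated meaning, that no title of 21 hpf has. Any difference in how cells of each stage were collected or sequenced cannot be told apart from stage. The embryos behind the cells were not named, so each stage counted as 1 sample, and no p-value or standard error was computed from cells.

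The floor of the dorsal aorta is where hemogenic endothelium lies. Its cells lose their endothelial junctions, take up blood regulators and leave the vessel wall as blood stem and progenitor cells. In zebrafish this work is known to involve gata2b and runx1 in the endothelial cells, then myb and gfi1aa in the cells that turn to blood. Primitive red cells also fill the vessel from the time the circulation starts, and they express embryonic globins.

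Total counts per floor cell were 216581 to 4227288 at 21 hpf (median 1448099) and 4339995 to 8254178 at 28 hpf (median 5043748). The ranges did not overlap, so depth and stage cannot be told apart in the untreated counts, and every cell was thinned to 200000 reads. The thinned reads were summed to 3600000 at 21 hpf and 2400000 at 28 hpf, and a level is given in CPM, the count of a gene scaled to the usual common library total. Levels of the lowest, median and highest cell use all reads of the cell. A ratio sets the level at 28 hpf against that at 21 hpf, and its exact binomial 95% interval covers the counting of reads only. That spread is far smaller than the spread between cells. Where a group had no thinned read, 3 reads were put in its place, equal to 0.833 CPM at 21 hpf and 1.25 CPM at 28 hpf, and the ratio is written as "at least".

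The labels call the cells endothelial, but most floor cells spent a smaller share of their counts on pan-endothelial genes than any roof cell of their stage. These genes took a median of 0.227% of the counts at 21 hpf and 0.171% at 28 hpf, against 2.63% and 2.44% in the roof cells of the same stages. Floor cells 3, 6, 16 and 18 of 21 hpf reached the share of the lowest roof cell of that stage (0.608%), and the highest of them had 3.68%. The highest floor cell of 28 hpf, cell 1, had 0.620%, below the lowest roof cell of 28 hpf (1.64%). Cell 1 was above 0.608% as well, but it was kept wherever cells 3, 6, 16 and 18 of 21 hpf, the roof-like cells, were left out. At 21 hpf 8 of 18 cells spent over 1% of their counts on globin genes, which is 44.4% of the cells with an exact Clopper-Pearson interval from 21.5% to 69.2%. At 28 hpf 3 of 12 cells did so, which is 25% with an interval from 5.49% to 57.2%. Here and below, an interval on a share of cells takes the cells as independent draws. The embryos are not named, so this cannot be checked, and such an interval does not cover differences between embryos. Muscle genes took 8.81% of the counts of cell 6 of 28 hpf and no more than 0.00700% in any floor cell of 21 hpf. The whole erythroid list took a median of 1.72% of the counts at 21 hpf and 1.23% at 28 hpf. Over 1% erythroid or muscle counts were found in 12 cells of 21 hpf and 8 of 28 hpf, among the latter cell 6 by its muscle genes.

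**Figure D1:**
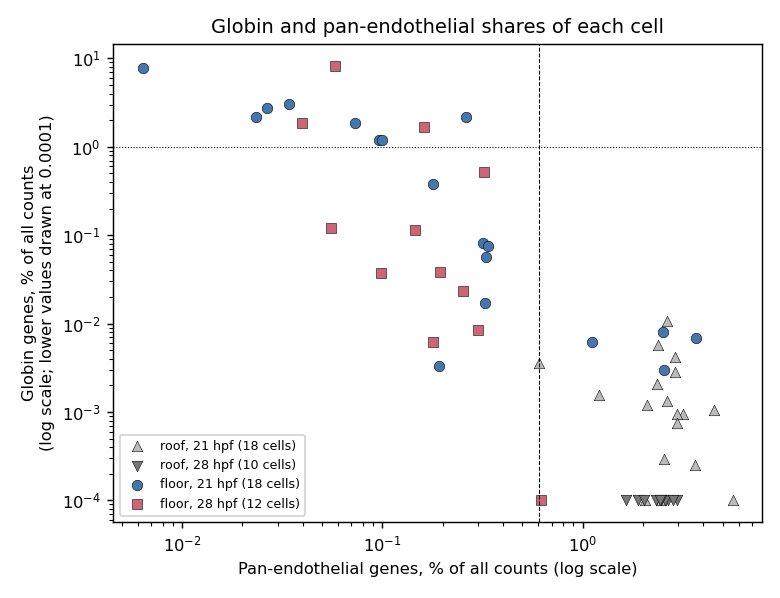
Each point is 1 cell, placed by the share of its counts on pan-endothelial genes (x) and globin genes (y), both in percent on log scales, with globin shares under 0.0001% drawn at that value. The dotted line marks 1% globin and the dashed line the lowest roof cell of 21 hpf (0.608%). Blue points above the dotted line are the 8 globin-rich floor cells of 21 hpf, and 4 blue points lie among the grey roof cells.

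The cells of 28 hpf also differed from those of 21 hpf in how many genes they showed. Among 200000 reads, cells of 21 hpf had reads in 4530 to 8092 genes (median 5940) and cells of 28 hpf in 1974 to 6185 (median 5198). Cells 1, 3, 4, 6 and 9 of 28 hpf had 1974 to 3380 genes, below every cell of 21 hpf, while the other 7 had 5151 to 6185. Ribosomal protein genes took 2.88% to 11.4% of the counts at 21 hpf (median 7.08%) and 8.02% to 18.9% at 28 hpf (median 11.6%). No columns of the floor cells were identical, and the Pearson correlation of log2(CPM + 1) between floor cells was 0.413 to 0.807.

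Most 2-fold differences between the stages came under 2-fold without the 3 highest cells of the higher group. This held more often for genes higher at 28 hpf than for genes lower at 28 hpf. A gene a little over 2-fold can come under it in this way even if most cells share the difference. The proteasome gene psmb7 did so with 11 of 12 cells of 28 hpf above every cell of 21 hpf. Of 7613 genes with a mean level of 10 CPM or more, 1240 (16.3%) were at least 2-fold higher at 28 hpf and 2330 (30.6%) were at least 2-fold lower. Without the 1 highest cell of 28 hpf for each gene, 740 of the 1240 higher genes (59.7%) came under 2-fold. Without the 3 highest cells 1102 did (88.9%), which left 138 genes, or 1.81% of all genes entered. Of the 2330 lower genes, 549 (23.6%) came under 2-fold without the highest cell of 21 hpf and 1308 (56.1%) without the 3 highest, which left 1022 genes, or 13.4% of those entered. These counts are not on equal terms, since 3 cells are 25% of the cells at 28 hpf and 16.7% of those at 21 hpf. With 4 cells left out at 21 hpf, 22.2% of its cells, 1573 of the lower genes (67.5%) came under 2-fold, still a smaller share than the 80% of higher genes with 2 cells left out at 28 hpf, 16.7% of its cells. The titles of 5 of the 12 cells of 28 hpf carry the part M12, and cell 12, titled D12, has M12 in its description. Without these 6 cells 1872 genes were at least 2-fold higher and 2394 at least 2-fold lower. The cells kept include cells 1, 3, 4 and 6, which are among those with 1974 to 3380 genes. Title part and gene number therefore cannot be told apart in this removal. Without the 5 cells of under 3500 genes, 929 genes were at least 2-fold higher and 2388 at least 2-fold lower.

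The genes that rested on 1 cell of 28 hpf were gathered in the cells with few genes. Cells 1, 4, 6, 3 and 9 carried 160, 133, 119, 85 and 85 of them, together 582 of 740 (78.6%). Each of the other 7 cells carried 9 to 47. At 21 hpf the genes were spread more evenly, with 67 in cell 16, 57 in cell 6, 56 in cell 18, 46 in cell 12 and 4 to 37 in each of the others. Without the 5 cells of few genes, 671 of the 1240 higher genes (54.1%) were still 2-fold higher and 79 were 2-fold lower instead. Of the 2330 lower genes, 1834 (78.7%) were still 2-fold lower. The part of the low gene number in these differences was not tested beyond this.

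**Figure D2:**
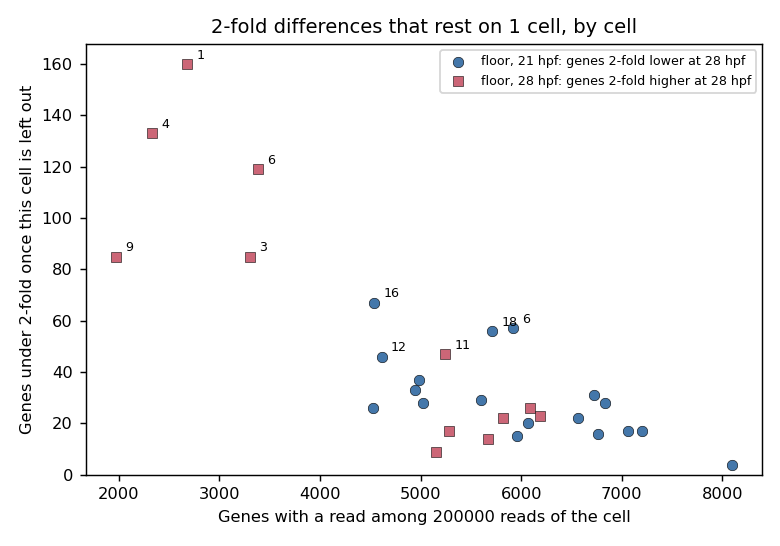
Each point is 1 floor cell, with the number of genes that had a read among its 200000 reads (x). The y axis gives the number of genes for which it was the highest cell and that came under 2-fold without it. The 5 cells of 28 hpf with 1974 to 3380 genes carried 85 to 160 such genes each, and no cell of 21 hpf carried more than 67.

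**Figure D3:**
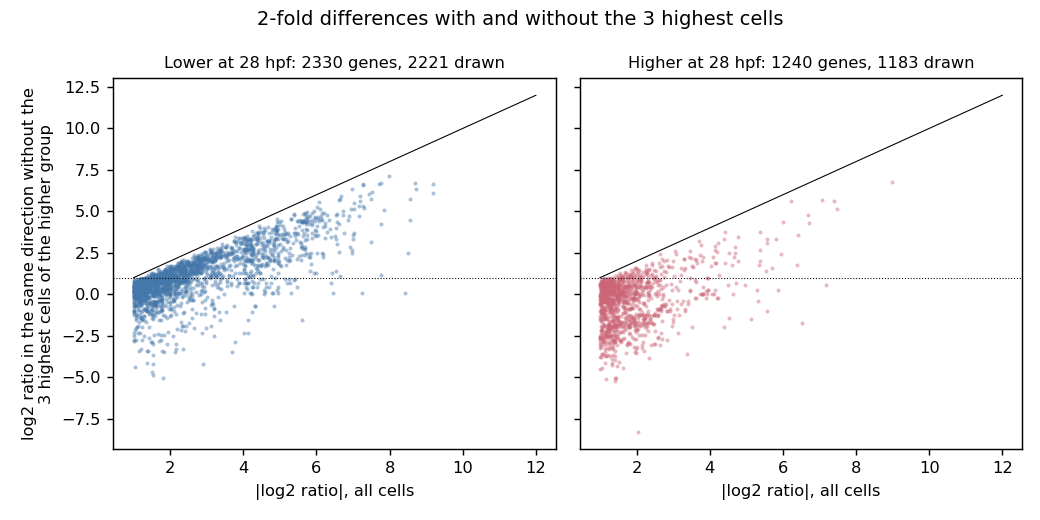
Each point is a gene at least 2-fold apart, with the size of its log2 ratio over all cells (x) and its log2 ratio in the same direction without the 3 highest cells of the higher group (y), for 2221 of 2330 lower genes (left) and 1183 of 1240 higher genes (right), the rest having no ratio left. Points above the dotted line at 1 are the 1022 lower and 138 higher genes that were still 2-fold apart, and the solid line marks equal values.

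Genes with no thinned read in the lower group were counted in both directions. At 28 hpf 316 of the 2330 lower genes had none, and 187 of these were still 2-fold apart without the 3 highest cells of 21 hpf. At 21 hpf 51 of the 1240 higher genes had none, and 7 of them were still 2-fold apart without the 3 highest cells of 28 hpf. These counts are not on equal terms either, since 12 cells gave 2400000 thinned reads and 18 cells 3600000, and a gene without a thinned read may have reads among all those of a cell.

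A gene was counted as differing in many cells if it had 50 CPM or more in the higher group and 5 or more thinned reads in at least 50% of its cells. It also had to be 2-fold apart by thinned sums, by mean per-cell levels, without any 1 cell and without the 3 highest cells. There were 88 such genes higher at 28 hpf and 400 lower. In the roof, 15.6% of 7256 genes with a ratio were 2-fold higher at 28 hpf and 34.4% were 2-fold lower. Of the higher floor genes 83 had a roof ratio, and 26 (31.3%) were 2-fold higher there and 20 (24.1%) 2-fold lower. Of the lower floor genes 394 had one, and 206 (52.3%) were 2-fold lower there and 21 (5.33%) 2-fold higher. Without the globin-rich, muscle-rich and roof-like cells, 77 of the 88 and 365 of the 400 were still 2-fold apart. The rule that chose these genes already asks for ratios that hold when cells are left out. These counts therefore follow in part from the choice, and no such share is given here for all 2-fold genes. The 88 and 400 genes were not counted without the 5 cells of few genes.

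The genes higher at 28 hpf in many cells included regulators of the actin skeleton and signalling adaptors of blood cells. The profilin gene pfn1, whose protein feeds actin monomers to growing filaments, had 577 CPM at 21 hpf and 3623 CPM at 28 hpf, 6.28-fold higher (5.99 to 6.59). Its cells had 42.0 to 2522 CPM at 21 hpf (median 307) and 1029 to 6082 at 28 hpf (median 3837). At 28 hpf 10 of 12 cells lay above every cell of 21 hpf, and the ratio was still 5.31-fold without the 3 highest cells. In the roof pfn1 was lower at 28 hpf, at 165.5 against 605 CPM. The gene arpc1b, a subunit of the Arp2/3 complex that branches actin, was 6.75-fold higher (6.09 to 7.50), at 830 against 123 CPM.

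The adaptor gene grap2b, whose mammalian counterpart links antigen receptor signalling to its effectors, had no thinned read at 21 hpf and 142 CPM at 28 hpf. Among all reads its highest cell at 21 hpf had 0.672 CPM. It was at least 170-fold higher, and at least 48.7-fold without the 3 highest cells. Cells with 5 or more thinned reads numbered 0 of 18 at 21 hpf, where the exact interval reaches 18.5% of cells, and 8 of 12 at 28 hpf (66.7%, 34.9% to 90.1%). The rule that chose grap2b asks for such reads in many cells of 28 hpf and for a higher level there. These counts therefore follow in part from the choice, and the intervals do not allow for that. No roof cell of either stage had a thinned read of grap2b. The highest cells were cell 7 with 507 CPM, cell 10 with 467 and cell 5 with 364. These cells also held the red cell factor gata1a, at 1791, 655 and 880 CPM, and cells 10 and 5 were globin-rich. Cells 2, 3, 6 and 8 of 28 hpf had 42.5 to 148 CPM of grap2b and no read of gata1a. The Src kinase adaptor gene skap2 had 5.28 CPM at 21 hpf and 70.0 at 28 hpf, 13.3-fold higher (8.23 to 22.6), and was also at 0 in the roof. The LIM domain gene crip1 was 16.9-fold higher (9.96 to 30.9), at 70.4 against 4.17 CPM.

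Other genes of this kind had roles in metabolism, chromatin and the cytoskeleton. The cytochrome c oxidase subunit gene cox6b1 was 27.5-fold higher (15.8 to 52.3). The linker histone gene h1fx was 11-fold higher (9.21 to 13.2), at 428 against 38.9 CPM. The casein kinase 2 subunit gene csnk2b was 8.25-fold higher (6.92 to 9.89), but in the roof it was also higher, at 242 against 70.0 CPM. The microtubule gene map2 was 18.5-fold higher, with 50.9% of its 28 hpf reads from cell 4, and 5.96-fold higher without the 3 highest cells. The ubiquitin ligase gene rnf145a was 8.42-fold higher (6.28 to 11.5) and the kelch family gene klhl24b 14-fold (8.59 to 24.2). The 28 hpf cells with 25 CPM or more of klhl24b were the 5 cells of few genes and cell 7.

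Several of the largest ratios belonged to genes with no described role here. The gene si:ch211-66k16.27 had 5 or more thinned reads in 1 of 18 cells at 21 hpf and 11 of 12 at 28 hpf, at 1.39 and 104 CPM, 74.7-fold higher (31.6 to 232). It was also higher in the roof, from 0 to 44.5 CPM. The gene si:dkey-100n23.4 was 21.4-fold higher (13.1 to 37.4) in the floor and stood at 8.53 and 102 CPM in the roof. The gene si:ch73-299h12.3 was 13.1-fold higher (9.84 to 17.8). Its cells had 0 to 52.7 CPM at 21 hpf and 54.1 to 470 at 28 hpf, so all 12 cells of 28 hpf lay above all 18 of 21 hpf. In the roof it had 7.06 and 3.50 CPM. A copy of the histone H3.3 gene h3f3b.1 (ENSDARG00000045248) was 64.3-fold higher (29.1 to 177), but it shares its symbol with another entry, so reads may have been split between the copies differently and its ratio is uncertain.

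**Figure D4:**
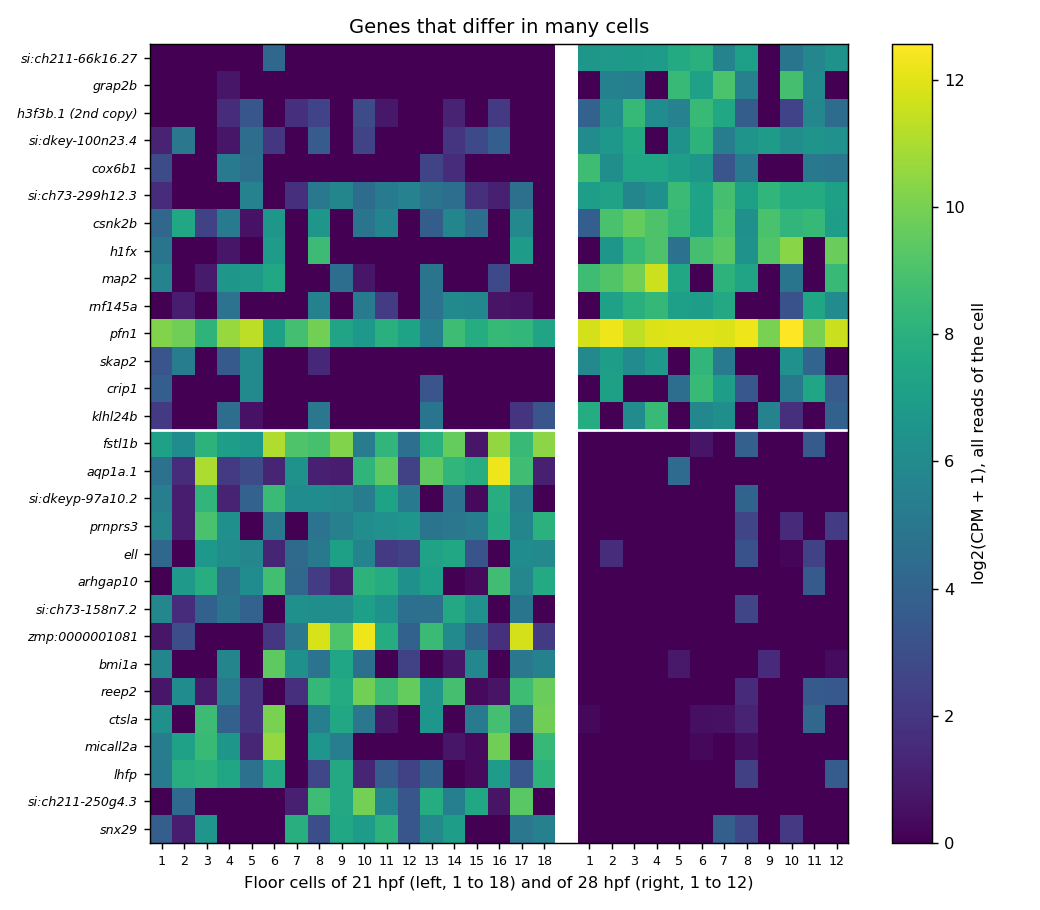
Colour shows log2(CPM + 1) from all reads of each floor cell, for 14 higher and 15 lower genes that differed in many cells, taken from the 15 in each direction with the largest ratios without the 3 highest cells. Genes above the white line were higher at 28 hpf, such as pfn1 (42.0 to 2522 CPM in the cells of 21 hpf and 1029 to 6082 in those of 28 hpf), and genes below it were lower, such as fstl1b (0.710 to 2153 and 0 to 13.5 CPM).

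Genes lower at 28 hpf in many cells were often near 0 at that stage. The secreted glycoprotein gene fstl1b, of the follistatin-like family, had 523 CPM at 21 hpf and 2.08 CPM at 28 hpf, 251-fold lower (107 to 774). Its cells had 0.710 to 2153 CPM at 21 hpf (median 291), and 17 of 18 cells lay above every cell of 28 hpf, where the highest had 13.5. Cells with 5 or more thinned reads numbered 17 of 18 at 21 hpf and 0 of 12 at 28 hpf, where the exact interval reaches 26.5%. The rule that chose fstl1b asks for such reads in many cells of 21 hpf and for a lower level at 28 hpf. Its counts therefore follow in part from the choice, and the interval does not allow for that. In the roof fstl1b was also lower, at 265 against 1012 CPM.

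The water channel gene aqp1a.1 was 417-fold lower (142 to 2023) and still 106-fold lower without its 3 highest cells, and 50% of its 21 hpf reads came from cell 16. Without the globin-rich, muscle-rich and roof-like cells it had no read left at 28 hpf and was at least 3.56-fold lower, a bound. The roof had 2172 CPM of it at 21 hpf and 1652 at 28 hpf. The cathepsin L gene ctsla was 147-fold lower (50 to 713) in the floor and stood at 302 and 618 CPM in the roof. The Polycomb gene bmi1a was 179-fold lower, from 74.4 to 0.417 CPM, the latter a single read, with 56.7% of its 21 hpf reads from cell 6. The transcription elongation factor gene ell was 155-fold lower (27.5 to 6135), also against 1 read, with 64.4 CPM at 21 hpf from 11 of 18 cells. It had 40.3 and 67.0 CPM in the roof.

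The gene arhgap10 was 156-fold lower (42.9 to 1289), and the sorting nexin gene snx29 was 54.0-fold lower (18.3 to 264). The gene micall2a had no thinned read at 28 hpf, where its highest cell had 0.392 CPM by all reads, and was at least 155-fold lower, and lhfp was 64.2-fold lower (21.8 to 313). The gene reep2 was 101-fold lower (46.1 to 275), and at 21 hpf its highest cell, cell 10, had 944 CPM. The gene ENSDARG00000044212 had 729 CPM at 21 hpf and no read in any cell of 28 hpf, at least 584-fold lower, with its highest levels in cells 10, 8 and 17, the highest of them 4796 CPM, and with no thinned read in the roof. The gene si:ch211-250g4.3, at least 124-fold lower, was highest in cells 10, 17 and 8 as well, at 974, 647 and 405 CPM. The remaining genes of this group were si:dkeyp-97a10.2, prnprs3 and si:ch73-158n7.2, which were 216-fold, 210.0-fold and 126-fold lower, each against 1 read at 28 hpf.

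The largest ratios of all in the higher direction came from 1 cell. The muscle actin gene actc1b had 3057 CPM at 28 hpf and no read in any cell of 21 hpf, at least 3668-fold higher. Of its 28 hpf reads 99.9% came from cell 6, which had 36223 CPM. The myosin light chain gene mylpfa and the tropomyosin gene tpma had all of their thinned reads of 28 hpf in cell 6, with 9619 and 8337 CPM there. The parvalbumin genes pvalb1 and pvalb2 and the myosin light chain gene mylz3 had 100%, 99.7% and 98.4% of theirs there. Of the muscle list, 12 of 12 measured genes were at least 2-fold higher, against 16.3% of all genes, and 0 were still so without the 3 highest cells. The glycolysis gene aldoab, at least 110.0-fold higher, also had all of its thinned reads in cell 6, and this cell is the one with 3380 genes.

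The largest few-cell ratios in the lower direction came from the roof-like cells of 21 hpf. The collagen chaperone gene serpinh1b had 426 CPM at 21 hpf and no read in any cell of 28 hpf, at least 340-fold lower, with 5 or more thinned reads in 3 of 18 cells and 43.0% of its reads from cell 3. Its relative serpinh1a had 65.0% of its reads from cell 16. The Notch target genes her15.1 and her15.2, whose sequences are close enough that reads may be shared, had 52.5% and 51.9% of their reads from cell 3. The gene vsg1 had 75.2% from cell 6 and the kinase gene map4k2 50.9% from cell 3. Of these 6 genes, none had a ratio left without the globin-rich, muscle-rich and roof-like cells, since both stages then had at most 3 reads. In the roof, serpinh1b had 1399 CPM at 21 hpf and 960 at 28 hpf.

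Blood regulators showed no common direction. Of 17 measured genes, 2 were at least 2-fold higher (11.8%, against 16.3% of all genes) and 4 at least 2-fold lower (23.5%, against 30.6%). The median log2 ratio was -0.16, against -0.20 over all genes. The transcription factor gene myb, needed for definitive blood, had 647 CPM at 21 hpf and 995 CPM at 28 hpf, 1.54-fold higher (1.45 to 1.63). Its cells had 0 to 2177 CPM at 21 hpf (median 299) and 32.8 to 2607 at 28 hpf (median 1003), so the ranges overlapped almost wholly. It was detected, with 5 or more thinned reads, in 14 of 18 cells and 11 of 12. Without the 3 highest cells the ratio was 1.05-fold.

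The repressor gene gfi1aa had 674 CPM at 21 hpf and 558 at 28 hpf, in 13 of 18 and 9 of 12 cells. Its cells had 0 to 3356 CPM (median 123) and 0 to 2905 CPM (median 353), and cell 9 held the highest level at 28 hpf. The stem cell leukemia factor gene tal1 had 471 and 421 CPM, its partner lmo2 654 and 707, and the Ikaros gene ikzf1 348 and 266. The regulator gata2b was 3.53-fold higher (2.50 to 5.06), at 47.1 against 13.3 CPM, but 54.9% of its reads came from cell 9 and without this cell the log2 ratio was 0.80. It was detected in 3 of 18 and 4 of 12 cells. Without the 5 cells of few genes its log2 ratio was -1.64, in the other direction.

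The core binding factor gene cbfb, partner of runx1, was 3.03-fold higher (2.34 to 3.96), and 1.07-fold lower without its 3 highest cells. The gene cebpb had 402 and 766 CPM and was detected in 7 of 18 and 8 of 12 cells. The homeobox gene meis1b was 4.26-fold lower (3.44 to 5.33) and 2.29-fold lower without its 3 highest cells. The adhesion receptor gene adgrg1 was 2.74-fold lower (2.29 to 3.28), detected in 14 of 18 and 4 of 12 cells. The levels of runx1 were 6.94 and 6.67 CPM, and those of itga2b, kita and ptprc were at most 1.67 CPM, below the level needed to enter. The myeloid factor gene spi1b had 17.2 and 20.4 CPM from 2 cells of each stage, with 85.7% of its 28 hpf reads from cell 1.

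The list of leukocyte signalling and actin genes was higher as a group. Of 15 measured genes 7 were at least 2-fold higher (46.7%, against 16.3% of all genes) and 1 was at least 2-fold lower, with a median log2 ratio of 0.96. In the roof the median over 11 of them was -0.02. Of the 7 higher genes 3 were still 2-fold higher without the 3 highest cells, namely grap2b, arpc1b and the small GTPase gene rac2, the last at 79.6 against 11.9 CPM. The actin regulator gene coro1a had 43.1 CPM at 21 hpf and 238 CPM at 28 hpf, 5.54-fold higher (4.63 to 6.65). It was detected in 3 of 18 cells and 6 of 12 (50%, 21.1% to 78.9%). Without the 3 highest cells it was 1.92-fold higher, and its highest cells at 28 hpf were cells 7, 3 and 12, with 824, 562 and 506 CPM. The plastin gene lcp1 was 2.60-fold higher (1.96 to 3.48), but 62.0% of its reads came from cell 7 and without it the log2 ratio was 0.11.

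Red cell genes were lower in more cases than they were higher, as were all genes. Of 25 measured erythroid genes 1 was at least 2-fold higher (4.00%, against 16.3% of all genes). Their median log2 ratio was -0.70, and 11 were at least 2-fold lower (44.0%, against 30.6% of all genes). Of these 11, 4 were still 2-fold lower without the 3 highest cells. The alpha globin gene hbae3 had 2294 CPM at 21 hpf and 2584 at 28 hpf, but 73.6% of the latter came from cell 11. Its cells had 0 to 13245 CPM at 21 hpf (median 58.3) and 0 to 23010 at 28 hpf (median 0). The beta globin gene hbbe1.1 was 3.97-fold higher (3.81 to 4.15), with 65.7% of its reads from cell 11, and its log2 ratio was 0.57 without this cell and -0.63 without the globin-rich and muscle-rich cells. The median log2 ratio of the whole erythroid list was -1.77 without cell 11, -0.06 without cell 15 of 21 hpf and -0.09 without the 5 cells of few genes, where 4 genes were 2-fold higher and 5 were 2-fold lower. Embryonic globin genes resemble each other closely, so reads may have been split between them in ways that make single members uncertain.

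The globin-rich cells of both stages also held the red cell factor gata1a and the heme enzyme alas2. All 8 such cells of 21 hpf and all 3 of 28 hpf had 25 CPM or more of both genes, and of myb as well. This level of myb was not particular to them. Every cell of 28 hpf and cells 1, 2, 4, 5, 8 and 9 of 21 hpf had it too. Outside the globin-rich cells, cells 1 and 9 of 21 hpf and cell 7 of 28 hpf had this level of gata1a. For alas2 these were cells 2 and 9 of 21 hpf and cell 7 of 28 hpf. Only 1 of these 11 cells, cell 10 of 28 hpf, had 25 CPM or more of coro1a. The other cells with this level of coro1a were cells 1, 4 and 5 of 21 hpf and cells 2, 3, 7, 8 and 12 of 28 hpf. The gene alas2, which starts heme synthesis in red cells, was 3.80-fold lower (3.43 to 4.23), at 173 against 659 CPM, and 2.21-fold lower without the 3 highest cells. It was detected in 11 of 18 and 4 of 12 cells. The gene gata1a had 180 and 296 CPM, from 9 of 18 and 4 of 12 cells, but its highest cell at 28 hpf, cell 7 with 1791 CPM, had no read of hbae3. Cell 7 spent 2.49% of its counts on the erythroid list and 0.116% on globin genes, and had 269 CPM of alas2. Without cell 7 the log2 ratio of gata1a was -0.31. The embryonic globin hbz was 6.69-fold lower (5.22 to 8.68) and the red cell and platelet factor nfe2 67.3-fold lower (18.4 to 560). The anion exchanger gene slc4a1a was 2.17-fold lower and lay 1.14-fold higher without its 3 highest cells.

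Of 10 heme synthesis genes, 0 were at least 2-fold higher and 3 at least 2-fold lower (30%, near the 30.6% of all genes). Their median log2 ratio of -0.58 was 0.03 without the 5 cells of few genes. The enzyme gene urod had 1222 and 1508 CPM and alad 212 and 227, while ppox was 3.81-fold lower (2.70 to 5.50). The myeloperoxidase gene mpx was 3.11-fold lower (2.77 to 3.51), from 5 of 18 and 3 of 12 cells. Without its 3 highest cells its log2 ratio was 0.39, in the other direction. At 28 hpf its reads came from cells 5, 10 and 11, the 3 globin-rich cells, with 101, 539 and 1073 CPM. At 21 hpf its cells of 100 CPM or more were cells 7, 10, 13, 15 and 17, also globin-rich. Of the other blood markers, the platelet receptor gene gp1bb was 2.27-fold higher (1.71 to 3.02) and turned 1.31-fold lower without its 3 highest cells.

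Pan-endothelial genes were much lower at 28 hpf, and the difference was smaller without 4 cells of 21 hpf. Of 25 measured genes 1 was at least 2-fold higher (4.00%) and 20 at least 2-fold lower (80.0%, against 30.6% of all genes), with a median log2 ratio of -5.21, and 15 of the 20 were still 2-fold lower without the 3 highest cells. In 12 of the 25 the group at 28 hpf had no thinned read, so the median is itself a bound. Without cells 3, 6, 16 and 18 of 21 hpf the median was -0.97. These cells were picked by the same genes and at 21 hpf only, so the smaller value follows in part from the choice. Cell 1 of 28 hpf, with a share of 0.620%, was also above the cut of 0.608% and was kept. In the roof the median was 0.01.

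The receptor gene kdrl, whose promoter drives both reporters, had 2174 CPM at 21 hpf and 285 CPM at 28 hpf, 7.62-fold lower (7.04 to 8.25). Its cells had 0 to 22311 CPM at 21 hpf (median 290) and 0 to 1692 at 28 hpf (median 20.9). Cells 6, 3, 16 and 18 of 21 hpf, at 22311, 7172, 4829 and 2208 CPM, lay above every cell of 28 hpf. Without these cells, picked by a list that holds kdrl, the gene was higher at 28 hpf, by 0.56 on the log2 scale. Cell 1 of 28 hpf, at 1692 CPM, was kept although its pan-endothelial share (0.620%) was above the cut of 0.608%. The ratio without cell 1 as well was not computed, so no direction is drawn from this value. The gene kdrl was detected in 14 of 18 and 5 of 12 cells. In the roof it had 10199 and 7032 CPM. The adherens junction gene cdh5, which holds endothelial cells together, had 179 CPM at 21 hpf and no thinned read at 28 hpf, at least 144-fold lower. By all reads its highest cell of 28 hpf had 0.424 CPM. It was detected in 7 of 18 cells (38.9%, 17.3% to 64.3%) and in 0 of 12, where the exact interval reaches 26.5%. Without the 3 highest cells it was at least 26.1-fold lower.

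Among the other endothelial genes, the C-type lectin gene clec14a and the adaptor gene she were at least 377-fold and 375-fold lower, and at least 53.9-fold and 22.4-fold lower without their 3 highest cells. The receptor gene tek was lower at 7.50 against 114 CPM, detected in 14 of 18 and 3 of 12 cells, and ecscr at 5.83 against 246 CPM, in 14 and 1. Of the list, 2 members stayed near even. The transcription factor gene fli1a had 772 and 734 CPM, was detected in every floor cell of both stages, and was 1.05-fold lower (0.991 to 1.12). The phosphatase gene dusp5 had 811 and 783 CPM.

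Arterial, venous and matrix genes went the same way as pan-endothelial genes. Of 19 arterial and Notch genes 3 were at least 2-fold higher (15.8%, against 16.3% of all genes) and 14 at least 2-fold lower (73.7%, against 30.6%). Their median log2 ratio was -3.82 in the floor, -0.69 without the 4 roof-like cells and 0.26 in the roof. The Notch ligand gene dll4 had 312 CPM at 21 hpf and 53.3 at 28 hpf, 5.85-fold lower (4.87 to 7.09), and 1.58-fold lower without its 3 highest cells. The ephrin gene efnb2a was 8.84-fold lower (6.71 to 11.9) and 1.3-fold higher without its 3 highest cells. The receptor gene notch1b was lower at 20.4 against 289 CPM, in 3 of 12 and 9 of 18 cells.

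The Notch target hey2 was near even, at 310.0 and 352 CPM, but 82.3% of its 28 hpf reads came from cell 4 and it was detected in 9 of 18 and 3 of 12 cells. The 3 higher genes were the transcriptional repressors her6, her9 and hey1, and none was still 2-fold higher without the 3 highest cells. Of the her6 reads at 28 hpf 85.7% came from cell 8, which had 7440 CPM, and without it the log2 ratio was -0.64. Cell 8 was also the highest for her9, with 3019 CPM and 50.9% of the reads.

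Of 8 venous genes 0 were at least 2-fold higher and 7 at least 2-fold lower (87.5%, against 30.6% of all genes), with 5 still so without the 3 highest cells. The median log2 ratio was -3.35, and without the 4 roof-like cells it was -0.79, with 2 genes higher and 2 lower. The scavenger receptor gene stab2 was 5.43-fold lower (4.16 to 7.21) and mrc1a also 5.43-fold (4.30 to 6.94). The endocytic adaptor gene dab2 was 19.2-fold lower (12.3 to 31.7), with 47.3% of its reads from cell 6, and 1.74 higher on the log2 scale without the 4 roof-like cells. Of 11 matrix genes 10 were at least 2-fold lower (90.9%, against 30.6% of all genes), 6 of them still so without the 3 highest cells. The median was -3.46, and without the 4 roof-like cells -2.33, with 2 genes higher and 8 lower of 10, while the roof median over 9 genes was 1.35. The basement membrane gene nid1b was 39.8-fold lower (20.8 to 87.5), detected in 13 of 18 and 1 of 12 cells, and 23.6-fold lower without its 3 highest cells. The secreted matrix gene sparc went against the group, at 171 against 103 CPM.

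**Figure D5:**
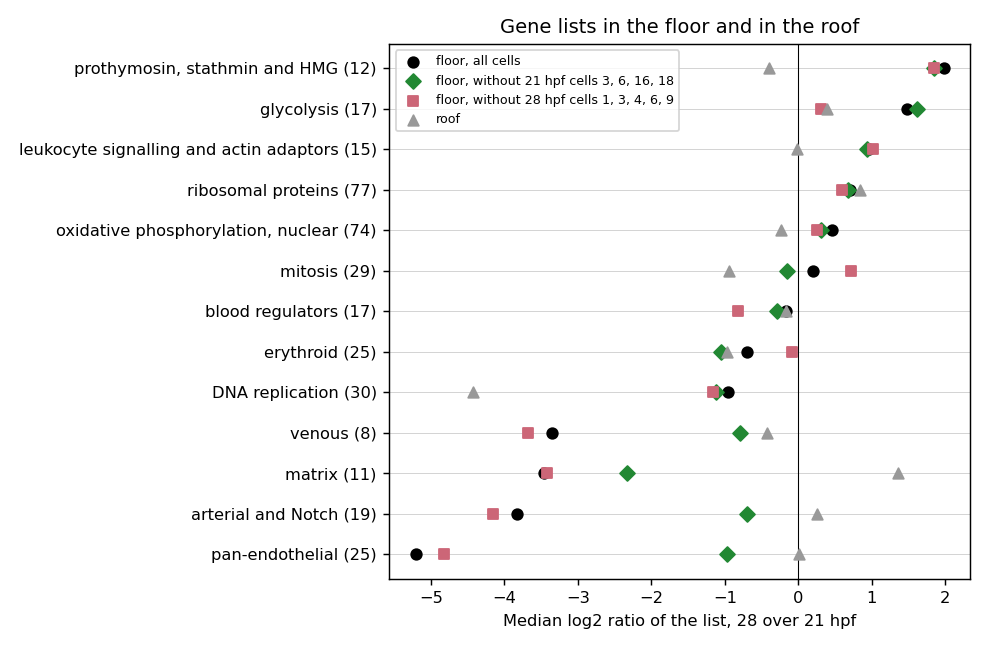
Points give the median log2 ratio, 28 over 21 hpf, of gene lists with the number of measured members in brackets, for all floor cells (black), without the 4 roof-like cells of 21 hpf (green), without the 5 cells of 28 hpf with few genes (red) and for the roof (grey). The pan-endothelial median was -5.21 over all floor cells, -0.97 without the 4 cells and 0.01 in the roof, while the prothymosin, stathmin and HMG median was 1.84 to 1.98 in these sets of floor cells and -0.40 in the roof.

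Genes of DNA replication were lower, and genes of mitosis were near even over all cells but moved both ways with the set of cells. Of 30 replication genes 0 were at least 2-fold higher and 15 at least 2-fold lower (50%, against 30.6% of all genes). Without the 3 highest cells 7 were still 2-fold lower, and the median log2 ratio over all cells was -0.95. Without the globin-rich and muscle-rich cells the median was -1.83. The roof median was -4.43. The replication helicase gene mcm3 had 381 and 233 CPM, from 12 of 18 and 4 of 12 cells. At 28 hpf its reads were almost all in cell 11, with 1379 CPM, and cell 6, with 1085, and 7 of 12 cells were at 0. Without the globin-rich and muscle-rich cells, which include both, its log2 ratio was -4.56. The licensing factor gene cdt1 was 8.74-fold lower (6.30 to 12.4), and the thymidylate synthase gene tyms 10.5-fold (5.98 to 20). The clamp gene pcna was lower at 293 against 893 CPM, detected in 9 of 12 and 16 of 18 cells.

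Of 29 mitosis genes 7 were at least 2-fold higher (24.1%, against 16.3% of all genes) and 1 at least 2-fold lower. The median log2 ratio was 0.20, and 0 of the 7 were still 2-fold higher without the 3 highest cells. Without the 6 cells of M12 the median was -0.28, with 0 genes higher and 5 lower. Without the 5 cells of few genes it was 0.71, with 9 higher and 0 lower. Leaving out the globin-rich and muscle-rich cells gave 0.59, with 11 higher and 0 lower. Leaving out the 4 roof-like cells gave -0.15, with 4 higher and 3 lower. The cyclin gene ccnb1 had 137 and 223 CPM, detected in 10 of 18 and 6 of 12 cells, and at 28 hpf its reads came from cells 3, 5, 7, 8, 10 and 12. The spindle gene nusap1 was 2.67-fold higher (2.27 to 3.15), and the survivin gene birc5a 3.27-fold (2.66 to 4.03). The proliferation marker mki67 was 2.01-fold lower (1.86 to 2.17) and 1.26-fold lower without its 3 highest cells.

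The prothymosin, stathmin and HMG genes, whose proteins bind chromatin or free tubulin, were mostly higher at 28 hpf, and most of these differences came from many cells. Of 12 measured genes 10 were at least 2-fold higher (83.3%, against 16.3% of all genes) and 0 at least 2-fold lower, with a median log2 ratio of 1.98, and 7 of the 10 were still 2-fold higher without the 3 highest cells. The prothymosin gene ptmab had 611 CPM at 21 hpf and 4864 CPM at 28 hpf, 7.96-fold higher (7.6 to 8.33). Its cells had 59.0 to 2662 CPM at 21 hpf and 409 to 18944 at 28 hpf, and 6 of 12 cells lay above every cell of 21 hpf. Its relative ptmaa was higher at 1097 against 204 CPM, the chromatin genes hmgb2a at 6825 against 1503 and hmgn2 at 4015 against 968. The tubulin-binding gene stmn1a was 9.33-fold higher (8.30 to 10.5), with its highest levels in cells 12, 9 and 8, and 2.27-fold higher without these 3. The genes hmgb1a and hmga1a were 1.14-fold and 1.57-fold higher. Without the 6 cells of M12 the median of the list was 1.15, with 7 of 12 genes 2-fold higher, and without the globin-rich, muscle-rich and roof-like cells it was 1.62. The roof median was -0.40, and ptmab had 1221 and 1084 CPM there.

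Glycolysis genes were higher at 28 hpf but rested on cells with few genes. Of 17 measured genes 12 were at least 2-fold higher (70.6%, against 16.3% of all genes) and 0 at least 2-fold lower. The median log2 ratio was 1.48, and 2 of the 12 were still 2-fold higher without the 3 highest cells. Without the 5 cells of few genes the median was 0.31, against -0.35 over all genes. The enolase gene eno1a was 19.2-fold higher (14 to 27.1), with 69.6% of its reads from cell 1, and 2.24-fold higher without its 3 highest cells. The dehydrogenase gene gapdhs was higher at 403 against 63.9 CPM and detected in all 12 cells of 28 hpf and 10 of 18 cells of 21 hpf. The hexokinase gene hk1 was 1.82-fold lower and the mutase gene pgam1a 1.37-fold lower.

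Genes of the translation and energy machinery shifted by less than 2-fold as groups. Over all genes, 16.3% were at least 2-fold higher and 30.6% at least 2-fold lower. Of 77 ribosomal protein genes 13 were at least 2-fold higher (16.9%) and 0 at least 2-fold lower, with a median log2 ratio of 0.71, and the roof median was 0.83. The gene rps12 was 2.66-fold higher (2.48 to 2.85) and rpl5b 1.17-fold lower (1.11 to 1.23). The nuclear genes of oxidative phosphorylation had a median of 0.45 over 74 genes, with 11 at least 2-fold higher and 2 lower, and the succinate dehydrogenase gene sdha was 2.37-fold lower (1.95 to 2.90). Proteasome genes had a median of 0.47 over 37 genes, with 5 higher and 1 lower, while translation initiation genes had 0.07 over 51, with 4 and 1. The proteasome subunit psmb7 was 2.52-fold higher (2.35 to 2.70), and 11 of 12 cells of 28 hpf lay above all cells of 21 hpf. The helicase gene eif4a1a was 3.15-fold lower (3.05 to 3.25), from 6558 to 2083 CPM.

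Mitochondrially encoded genes had a median log2 ratio of 0.42 over 13 genes, of which mt-atp8 alone passed 2-fold, at 4.02-fold higher (3.57 to 4.53). It was also higher in the roof, at 787 against 79.1 CPM. Of 55 splicing genes 15 were at least 2-fold higher (27.3%, against 16.3% of all genes) and 7 at least 2-fold lower (12.7%, against 30.6%). Of these, 5 of the 7 lower ones and 1 of the higher ones were still so without the 3 highest cells. The gene hnrnph1 was 42.0-fold lower (19.1 to 115), detected in 14 of 18 and 1 of 12 cells, while its relative hnrnph1l was higher, at 248 against 104 CPM. The gene hnrnpa0a was 4.07-fold higher (2.94 to 5.70).

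Heat shock and chaperone genes were 2-fold lower about as often as all genes. Of 20 measured members 2 were at least 2-fold higher and 7 at least 2-fold lower (35.0%, against 30.6% of all genes). The calcium-binding chaperone gene of the endoplasmic reticulum, calr, was 14-fold lower (10.9 to 18.2), detected in 16 of 18 and 3 of 12 cells, and 8.78-fold lower without its 3 highest cells. The gene hspa5, the main Hsp70 of this compartment, was 4.89-fold lower (4.56 to 5.26), and 12 of 18 cells of 21 hpf lay above every cell of 28 hpf. The related genes hsp90b1, pdia6, pdia3 and pdia4 were lower at 55.0 against 232, 59.6 against 289, 111 against 290 and 63.3 against 131 CPM. The cytosolic gene hspa8 was 2.04-fold higher (2.01 to 2.07), at 15187 against 7456 CPM, and the mitochondrial gene hspe1 3.79-fold higher (3.31 to 4.36). The pdia genes and hsp90b1 were picked after the values were seen. In the roof calr and hspa5 were also lower at 28 hpf, at 245 against 1023 and 2198 against 3500 CPM.

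Of 17 antioxidant genes 7 were at least 2-fold higher (41.2%, against 16.3% of all genes) and 2 at least 2-fold lower (11.8%, against 30.6%). The subunits of the enzyme that makes the glutathione precursor went apart, with gclc 6.34-fold lower (4.90 to 8.34) and gclm 3.19-fold higher (2.56 to 3.99). Without the 3 highest cells gclc was 5.14-fold lower and gclm 1.44-fold higher. The thioredoxin gene txn was 3.72-fold higher (3.25 to 4.26), and the glutathione reductase gene gsr 4.2-fold lower (3.21 to 5.59), with 54.2% of its reads from cell 16.

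Targets of BMP had no direction that held across sets of cells, and TGF-beta genes were mostly lower, over few genes each. Of 6 BMP targets 3 were at least 2-fold higher (50%, against 16.3% of all genes) and 1 at least 2-fold lower (16.7%, against 30.6%). None of the 3 was still 2-fold higher without the 3 highest cells. The median log2 ratio was 0.85, and without the 5 cells of few genes it was -0.98, with 2 genes higher and 3 lower. The inhibitor of differentiation gene id3 had 87.5 CPM at 21 hpf and 353 CPM at 28 hpf, 4.03-fold higher (3.54 to 4.6). Its cells had 0 to 576 CPM at 21 hpf (median 1.37) and 0 to 1067 at 28 hpf (median 173), it was detected in 7 of 18 and 9 of 12 cells, and without the 3 highest cells it was 1.81-fold higher. In the roof it had 284 and 335 CPM. Its relative id2a was 4.78-fold higher (4.16 to 5.52), with 51.6% of its reads from cell 9. The BMP pseudoreceptor gene bambia was 25.5-fold lower (10.7 to 79.3). Of 6 TGF-beta pathway genes 0 were at least 2-fold higher and 5 at least 2-fold lower (83.3%, against 30.6% of all genes), and 0 were still so without the 3 highest cells.

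Other small lists held few measured genes, and of all genes 16.3% were 2-fold higher and 30.6% 2-fold lower. The flow-responsive list had 1 higher and 3 lower of 4 genes. In it the mechanosensitive channel gene piezo1 was at least 46.9-fold lower, detected in 10 of 18 and 0 of 12 cells, and klf6a was 2.46-fold higher (1.90 to 3.21). The factor klf2a had no thinned read in any floor cell. Of 16 early response genes 3 were at least 2-fold higher and 1 lower, and jun was 2.67-fold lower (2.20 to 3.26) with 40% of its reads from cell 18. Of 7 inflammatory genes 3 were higher and 1 lower, and their median log2 ratio of 0.86 was -0.33 without the 5 cells of few genes. Among them stat1a was 3.2-fold higher (2.51 to 4.1), and 1.33-fold without its 3 highest cells. Of 6 measured hox genes 0 were higher and 5 lower, and the integrin gene itga4, which binds blood cells to vessel walls, was 2.33-fold lower (2.02 to 2.68).

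Markers of other cell types were mostly at or near 0. Myeloid genes had 5 of 17 found members measured, and lyz, mpeg1.1, marco and csf1ra had at most 0.278 CPM at either stage. The transcription factor gene cebpa had 599 and 559 CPM, and the oxidase subunit gene ncf1 was 4.27-fold higher at 28 hpf but rested on its 3 highest cells. Of 4 measured platelet genes 1 was at least 2-fold higher and 3 at least 2-fold lower, against 16.3% and 30.6% of all genes. The thrombopoietin receptor gene mpl had 37.2 CPM at 21 hpf from 1 detected cell. Notochord and sclerotome genes and mural and mesenchyme genes had no measured member, and neural, epidermal, pronephric and gut genes had 1 each. The keratin gene krt4 had 37.1 CPM at 28 hpf from 3 cells and no thinned read at 21 hpf, and the neural gene nova2 had 65.0 CPM at 21 hpf from 5 cells and no thinned read at 28 hpf. The log2 ratio of nova2 was -5.7 over all floor cells and -0.51 without the 4 roof-like cells, both bounds. Roof cells of 21 hpf spent a median of 0.0273% of their counts on the neural list. Of 6 sprouting genes 1 was higher and 2 were lower, and of 5 genes of cell transition and adhesion 1 was higher and 2 were lower. Among the latter, the repressor gene snai1a had 29.7 CPM at 21 hpf from 6 cells and no thinned read at 28 hpf.

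Some abundant genes were at nearly the same level at both stages. The 5 of highest mean level within 1.1-fold were the blood zinc finger gene blf, at 5936 and 5795 CPM, mt-cyb at 3559 and 3290, the RNA-binding gene serbp1a at 2341 and 2244, the poly(A)-binding gene pabpc1a at 1636 and 1624, and znfl2a at 1104 and 1069. Even sums did not mean even cells. The gene blf had 4.04 to 12718 CPM in the cells of 21 hpf and 153 to 15631 in those of 28 hpf, whereas pabpc1a had 724 to 2716 and 695 to 2903.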

How the data were processed

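The authors deposited a table of raw gene counts, with 1 column for each cell. Trim Galore and STAR are the tools, and GRCz11 (danRer11) the build, that the submitters' processing notes name. Not given in the sources used here are the counting tool, annotation, strand setting and versions, so overlapping and near-identical genes may share reads. The table held 35117 genes, 14082 of them without a read in any cell. Symbols came from the table, and for 4701 IDs from a table of gene names, and 1897 entries that share a symbol keep their ID.

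All floor cells had enough reads to be thinned without replacement to 200000 (seed 1), and 27 of 28 roof cells did. A gene entered with a mean of the levels of both stages of 10 CPM or more. No ratio was given where both stages had at most 3 reads. A difference was said to rest on few cells if it came under 2-fold without the highest 1 or 3 cells of the higher group. A difference near 2-fold that most cells share can also meet this rule. Detected means 5 or more thinned reads, equal to 25 CPM. Intervals were exact at 95%. Those of levels and ratios (Poisson and binomial) cover the counting of reads only, and reads are copies made by amplification. Those of shares of cells (Clopper-Pearson) take the cells of a stage as independent draws. No test across cells was made, because embryos are not named. Cells of 28 hpf carry parts M8 to M12 in their titles, whose meaning is not given. M12 stands in 5 titles and in the description of cell 12, whose title has D12, and all 6 were taken as M12.

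Genes were named by rule: up to 15 each way that differed in many cells, 6 each way that rested on few cells, 30 key genes, up to 2 of each list with the highest and 2 with the lowest ratio at 50 CPM or more, and 5 near-even genes. Of the genes the rule names, 1 is not reported here. The other list members given with levels were chosen after their values were seen. The 38 lists, written from general knowledge, held 993 entries, of which 974 were found. The genes, lists and rules were chosen with earlier results of these data known. The alternatives were other sums, scalings, filters and sets of cells. Roof values stand beside those of the floor, and the difference between regions was not tested. The thinning, the ratios and the rule with 1 cell left out were tested on simulated data. There the cells of a group shared 1 profile, apart from genes raised in 1 cell, so the spread between real cells was not simulated. The rule with 3 cells left out was not tested in this way. Work was done in Python 3.11.15 with numpy 2.4.6, pandas 2.3.3 and scipy 1.17.1, with factors from edgeR and DESeq2 in R.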

Additional observations from a re-analysis of the deposited data

How the results depend on the processing

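The alternatives changed 1 choice at a time, except the joint removals of cells and the mean per-cell level, which also drops the thinning, and the cause of a change was not tested except where fewer genes or cells enter by construction. No paired analysis was possible because a cell's number names 1 cell and no result comes from a test. Over all floor cells, 1240 genes were at least 2-fold higher at 28 hpf and 2330 at least 2-fold lower. With fewer or more genes entered, these counts were 409 and 649 at a mean level of 50 CPM or more, and 2423 and 5425 for any gene with a read. Without the cells of title part M12, which leaves 6 of 12 at 28 hpf, 1872 genes were higher. Cells 1, 3, 4 and 6, of under 3500 genes, are among those kept. Without the cells of under 3500 genes 929 genes were higher. Leaving out 1 cell at a time gave 1155 to 1350 higher genes and 2254 to 2464 lower ones. The few-cell counts stayed within 1.5 times of 1102 and 1308 with 2 or 4 cells left out. The factors of TMM and DESeq2 added 0.167 and 0.215 to the log2 ratio of every gene, and the sum of all reads moved the median of all genes by -0.124. Among the lists with a median, those of blood regulators and of sprouting genes changed sign under both factors, the latter from -0.0623 to 0.105 and 0.152.

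The median log2 ratio of blood regulators, -0.164 over all cells, was -0.366 with the sum of all reads, -0.279 with another thinning seed, 0.00364 with TMM and 0.0511 with DESeq2 size factors. That of erythroid genes, -0.697, was -0.928 with the sum of all reads, -0.529 with TMM, -0.482 with DESeq2 size factors and -0.386 at 50 CPM or more. That of pan-endothelial genes, -5.21, was -4.64 with another seed. Leaving out 1 cell at a time gave -0.345 to 0.0222 for blood regulators, -1.77 (without cell 11 of 28 hpf) to -0.0553 (without cell 15 of 21 hpf) for erythroid genes and -5.29 to -4.47 for pan-endothelial genes.

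Removing sets of cells moved the 3 medians further. Without cells of over 1% erythroid or muscle counts, which leaves 6 cells of 21 hpf and 4 of 28 hpf, the median of blood regulators was 0.29. Without the 4 roof-like cells of 21 hpf the medians of blood regulators, erythroid and pan-endothelial genes were -0.288, -1.06 and -0.974. Without both kinds, which leaves 2 and 4 cells, they were -0.615, -2.87 and -1.26. Without M12 they were 0.252, -1.77 and -4.6. Without cell 9 of 28 hpf, with under 2000 genes, the erythroid median was -0.575. Of the removals chosen after seeing the data, that of cells with over 1% globin or muscle counts gave -0.0176 for blood regulators and -0.526 for erythroid genes. With the roof-like cells removed as well, the values were -0.718, -1.16 and -1.28. Without the cells of under 3500 genes they were -0.824, -0.093 and -4.83.

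Of the lists and named genes at least 2-fold apart over all cells, 2 lists and 21 genes changed sign under these alternatives, all by removing cells. Of these, pvalb2 had no read in any cell of 21 hpf, and mylpfb had reads in only 1 cell of 28 hpf, cell 6. Their turned values use the 3 reads put in place of 0, and for pvalb2 the changed sign is no lower level at 28 hpf. Lists under 2-fold also changed sign without the cells of under 3500 genes, such as BMP targets from 0.853 to -0.983, inflammatory genes from 0.860 to -0.330 and myeloid genes from 0.245 to -0.824. By log2 ratio, without the erythroid-rich or muscle-rich cells the integrin list and itga4 had 0.496, lcp1 -0.719, gp1bb -1.53 and nfkbiab -0.338. Without the roof-like cells kdrl had 0.555, efnb2a 0.512, cotl1 0.616, aqp8a.1 0.637 and dab2 1.74. Without both kinds the venous list had 0.5, pvalb2 -0.585, lcp1 -1.04, coro1a -0.681, kdrl 1.7, cbfb -0.615, gp1bb -3, mrc1a 0.263, dab2 0.737, jun 3.03, nfkbiab -1.07, sdha 0.131 and hnrnpr -0.212. Without the globin-rich or muscle-rich cells hbbe1.1 had -0.626, gp1bb -0.356 and mylpfb -0.415, and without the roof-like cells as well hbbe1.1 had -1.25, kdrl 0.225, efnb2a 0.791, gp1bb -1.07, dab2 2, jun 0.183 and mylpfb -1.15. Without the cells of under 3500 genes gata2b had -1.64 and stat1a -0.0969. The gene her6 had -2.55 without M12. Leaving out 1 cell at a time gave -0.639 (without cell 8 of 28 hpf) to 2.4 for her6 and -0.0265 (without cell 6 of 28 hpf) to 5.94 for mylpfb. For the 173 named genes, 6506 of 8032 recomputed log2 ratios lay within the counting interval, 1490 moved outside it and 36 turned. Only genes at least 2-fold apart over all cells could count as turned. A smaller ratio that changed sign, such as that of gata1a without cell 7 of 28 hpf, is counted among the others. Most of the alternatives left out 1 of 30 cells, which keeps most values near those over all cells.

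The values rest on 30 cells of unknown embryos, and the intervals cover the counting of amplified reads and neither cell nor embryo differences. Depth did not overlap between the stages before thinning, and 3 thinned reads of a group equal 0.833 CPM at 21 hpf and 1.25 CPM at 28 hpf.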
